A study of Homo sapiens with 6 samples.

Results

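Ribosome biogenesis and RNA polymerase I genes were examined in A375, an established human melanoma cell line that carries the BRAFV600E mutation, after treatment with vemurafenib, a kinase inhibitor aimed at mutant BRAF. The genes were taken by name: any gene whose symbol begins with NOP, UTP, RRP or NOL and a digit, with POLR1 and a letter from A to H, or with GNL2 or GNL3, the genes IMP3, IMP4, RRS1 and RRN3, and the nucleolar genes LYAR, DKC1, BYSL, NHP2, FBL, NOLC1, NCL, NPM1, PES1, BOP1, WDR12 and EBNA1BP2. This gave 63 genes of the 18417 that the arrays could name and test. EBNA1BP2 and GNL3 had no probe set of their own under these names and were not analysed here, and NOP56 and UTP14C shared theirs with other genes. Of the 63, 57 have a known role in making ribosomes and 6 were matched by their name only (NOL3, NOL4, NOL4L, NOL4L-DT, POLR1HASP and RRP7BP).

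Both groups were A375 cells, and the 3 arrays of a group came from 3 stocks of cells handled on different days. The vehicle group received 0.1% DMSO for 24 h and the drug group received 10 µM vemurafenib for 24 h. All dishes were seeded 24 h before the start of treatment. RNA was measured on single-colour Affymetrix arrays, and the values are log2 levels per probe set, so a difference of 1 is a 2-fold difference. A change is always vemurafenib minus vehicle. These are bulk samples of 1 cell line, so fewer cells that express a gene and less RNA of that gene per cell cannot be told apart. Each array took the same 250 ng of RNA, so a change is relative to the rest of the RNA. A change in total RNA per cell would not be seen.

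Ribosomes are built in the nucleolus. RNA polymerase I, guided by the factor RRN3, copies the ribosomal DNA into a long precursor, small nucleolar RNA particles of the box C/D and box H/ACA kinds modify that precursor, and large sets of assembly factors cut and fold it into the small and large subunits. The transcription factor MYC is known as a broad activator of these genes, and growing tumour cells make many ribosomes.

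Array medians lay between 7.69 and 7.73 and 0 values were missing. Of 10 measured markers of melanocytes and melanoma, 6 stood above 6.87, the level below which the dimmest 25% of genes lie, among them MITF (10.17 in vehicle), SOX10 and S100B, whereas the pigment genes TYR, MLANA, PMEL and TYRP1 were below it in vehicle. Of the 10, 5 rose and 1 fell (limma, adjusted p under 0.05), against 23.2% higher and 22.2% lower among all genes. The mean level of the 10 went from between 8.25 and 8.31 to between 8.50 and 8.62. The mean level of 7 keratinocyte markers ran from 6.78 to 6.89 in vehicle and from 6.70 to 6.92 with vemurafenib, that of 8 fibroblast and endothelial markers from 6.81 to 6.97 and from 7.01 to 7.22, and that of 6 leukocyte markers from 6.46 to 6.58 and from 6.36 to 6.42. Above 6.87 in vehicle were also 3 of the 7 keratinocyte markers, with KRT14 the highest at 8.68. So were 3 of the 8 fibroblast and endothelial markers and 2 of the 6 leukocyte markers. In the fibroblast and endothelial list, DCN rose from 5.46 to 6.92 and LUM from 8.58 to 9.70, while PECAM1 fell from 5.74 to 5.42. The other 5 genes of that list, among them COL1A1, COL3A1 and PDGFRA, did not pass the threshold. In the leukocyte list CD14 fell from 6.76 to 6.44 and the other 5 genes did not pass. The part of these shifts in the results was not tested.

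With vemurafenib, 52 of the 63 genes fell and 4 rose (limma, adjusted p under 0.05 after Benjamini-Hochberg adjustment over all genes tested). Among all genes 22.2% were lower and 23.2% were higher by the same rule, or 4090 and 4281 genes, a split that became 5630 and 3682 after the median of every array was subtracted. Of the 57 genes with a role in ribosome biogenesis, 51 fell, 1 rose and 5 did not pass. Their median change was -0.65, beside -0.05 over all genes. For 53 of the 63 genes the 3 vemurafenib arrays all lay below the 3 vehicle arrays, which held for 28.5% of all genes. A fall of at least 1.5-fold was measured for 34 of the 63 genes (7.03% of all genes) and a fall of at least 2-fold for 9 (2.62% of all genes), and no gene of the 63 rose by 1.5-fold. The median level of the 63 genes was 10.53, 10.42 and 10.57 in the vehicle arrays and 9.74, 9.78 and 9.72 in the vemurafenib arrays, while the median of all genes stayed between 8.31 and 8.40 on the 6 arrays. All 3 drug arrays were low for these genes by similar amounts. Against a minimum change of 1.2-fold (limma's treat), 42 of the 52 genes stayed past the threshold, and the calls of FBL, IMP3, NOL7, NOL8, NOP10, POLR1F, RRN3, RRP36, RRP8 and UTP25 ended.

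**Figure D1:**
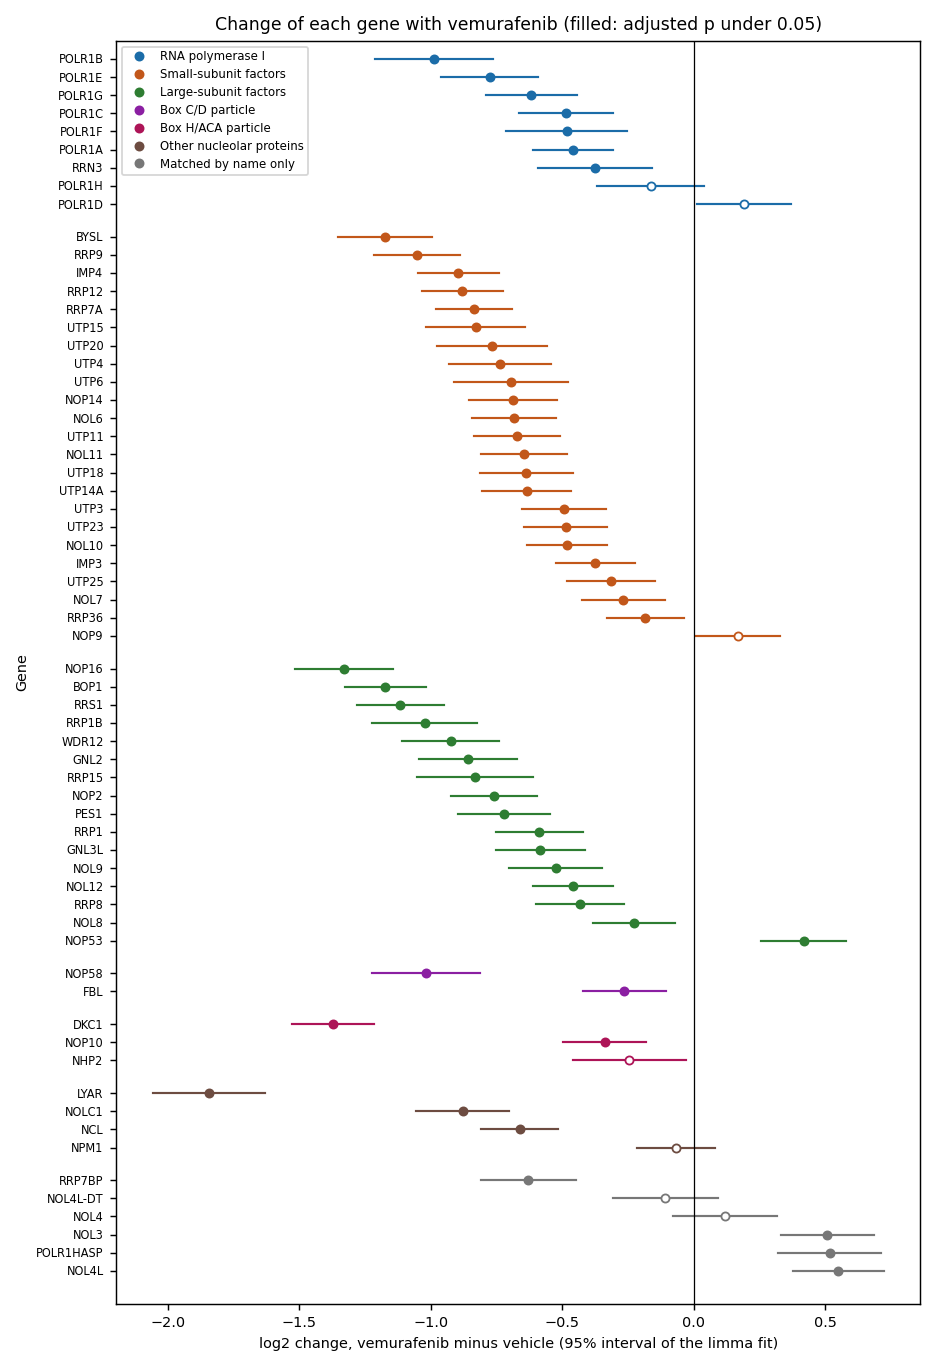
Each point is the log2 change of 1 gene (vemurafenib minus vehicle, horizontal axis) and each line its 95% interval from the limma fit on 3 arrays a group, with filled points for genes that passed an adjusted p of 0.05 and colours for roles. Of the 63 genes 52 lie to the left of 0 with filled points, LYAR farthest at -1.84, and the filled points to the right are NOP53, NOL3, POLR1HASP and NOL4L.

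LYAR, a zinc finger protein of the nucleolus that is abundant in dividing cells, showed the largest fall of the 63 genes and the 69th largest of all 18417. It read 10.49, 10.16 and 10.37 in the vehicle arrays and 8.57, 8.36 and 8.55 in the vemurafenib arrays. The groups were thus far apart, and the change of -1.84 (SE 0.10) was a 3.59-fold fall with a limma adjusted p of 6.24e-08.

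DNA upstream of the genes was read from RefSeq (GRCh38.p14) to see whether genes that moved together share short motifs. A window from 250 bases before to 50 bases after a start site was given for 52 of the 63 genes, 48 of them with a role in ribosome biogenesis. The letters CACGTG, the E-box form that MYC binds with its partner MAX and that reads the same on both strands, occurred in a window of 19 of these 48 genes (39.6%). The same letters occurred in a window of 10.9% of the 14239 tested genes with a window and in 12.8% of the tested genes that fell. Over single windows the shares were 35.2% for genes with a role, 8.32% for tested genes (20109 windows) and 7.26% for all 35116 windows. The ETS motif CCGGAAGT, searched on both strands, was found for 7 of the 48 genes (14.6%, against 7.15% of tested genes), and the YY1 motif AAGATGGC, also on both strands, for 3 (6.25%, against 4.86%). Matches of different motifs shared bases in 0 of the 54 windows of these genes and in 0 of all 35116 windows. The median change was -0.69 over the 19 genes with CACGTG (range -1.84 to -0.23) and -0.49 over the 29 without it (range -1.37 to 0.42). For the ETS and the YY1 motif the order was the other way, with a median of -0.49 over the 7 and the 3 genes with either motif and -0.64 over those without it. Genes for which no window was given are on neither side of these comparisons. Among them are BOP1 (-1.17), RRS1 (-1.12), UTP23 (-0.49) and NOL10 (-0.48). None of the differences between genes with and without a motif was tested. The motif matches describe the letters in a window and are not shown to be binding sites.

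The sites of the 8 genes with the largest falls among those with room for 12 bases on each side are shown because these genes share the motif, which is in capitals. Each is 30 bases long, 5′ to 3′ on the strand of the gene.
LYAR (chr4:4290068-4290097, minus strand): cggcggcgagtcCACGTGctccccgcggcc
BYSL (chr6:41921515-41921544, plus strand): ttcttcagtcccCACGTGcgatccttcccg
RRP9 (chr3:51941892-51941921, minus strand): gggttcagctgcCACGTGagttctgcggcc
IMP4 (chr2:130342682-130342711, plus strand): gcggtcctaagtCACGTGtgacattctgta
IMP4 (chr2:130342900-130342929, plus strand): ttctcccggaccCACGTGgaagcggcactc
GNL2 (chr1:37595917-37595946, minus strand): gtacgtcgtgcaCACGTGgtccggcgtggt
UTP20 (chr12:101280083-101280112, plus strand): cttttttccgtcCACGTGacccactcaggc
UTP4 (chr16:69132621-69132650, plus strand): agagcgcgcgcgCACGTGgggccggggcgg
PES1 (chr22:30591880-30591909, minus strand): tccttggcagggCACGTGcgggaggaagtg
The LYAR site begins 64 bases before the start and that of UTP20, which fell by 0.77 on the log2 scale, 10 bases before it. In BYSL, GNL2 and PES1 the motif lies just after the start, at bases 29, 4 and 14 of the transcript. IMP4 holds the motif at 203 bases before and at base 16 after its start. The whole 250 bases before the start of LYAR (chr4:4290022-4290271, minus strand) follow as the gene that fell most, then those of DKC1 (chrX:154762614-154762863, plus strand), which fell next and holds none of the 3 motifs, and of NOP53 (chr19:47745296-47745545, plus strand), which rose and holds the YY1 letters at 132 bases before its start.
LYAR: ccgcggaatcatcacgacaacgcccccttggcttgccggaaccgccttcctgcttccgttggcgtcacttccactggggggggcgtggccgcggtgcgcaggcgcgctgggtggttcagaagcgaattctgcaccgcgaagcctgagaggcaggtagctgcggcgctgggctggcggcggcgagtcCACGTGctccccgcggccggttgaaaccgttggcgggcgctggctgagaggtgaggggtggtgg
DKC1: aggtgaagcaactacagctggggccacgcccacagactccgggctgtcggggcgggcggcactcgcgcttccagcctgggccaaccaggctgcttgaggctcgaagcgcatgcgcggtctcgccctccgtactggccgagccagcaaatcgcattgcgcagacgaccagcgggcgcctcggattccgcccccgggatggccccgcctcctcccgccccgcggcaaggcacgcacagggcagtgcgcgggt
NOP53: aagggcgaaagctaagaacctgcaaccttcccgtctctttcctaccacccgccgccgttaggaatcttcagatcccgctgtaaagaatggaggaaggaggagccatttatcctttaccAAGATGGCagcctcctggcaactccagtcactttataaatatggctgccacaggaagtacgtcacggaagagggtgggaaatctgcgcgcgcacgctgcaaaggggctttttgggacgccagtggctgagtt
Capitals mark the E-box of LYAR and the YY1 letters of NOP53.

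Of the 8 RNA polymerase I subunit genes and RRN3, 7 fell, 0 rose and 2 did not pass (limma, against 22.2% of all genes lower). POLR1B, which forms the catalytic centre together with POLR1A, went furthest. It read 10.90, 10.68 and 10.93 in vehicle and 9.99, 9.90 and 9.65 with vemurafenib, a change of -0.99 (SE 0.10, limma adjusted p 1.10e-05), or 1.98-fold lower. The lowest vehicle array lay well above the highest drug array. POLR1A, the largest subunit, fell from 10.71, 10.70 and 10.78 in vehicle to 10.32, 10.27 and 10.23 with vemurafenib (change -0.46, SE 0.07). POLR1E and POLR1G form a pair that helps the enzyme start and elongate. POLR1E read 10.39, 10.16 and 10.34 in vehicle and 9.58, 9.43 and 9.56 with vemurafenib (change -0.78, SE 0.08). POLR1G stood at 9.24, 9.15 and 9.24 in vehicle and 8.72, 8.54 and 8.51 with vemurafenib (change -0.62, SE 0.08). Both fell with groups that did not overlap, and 28.5% of all genes were lower without overlap. POLR1F, part of the stalk that meets RRN3, read 9.46, 9.05 and 9.38 in vehicle and 8.74, 8.90 and 8.80 with vemurafenib (change -0.48, SE 0.10, limma adjusted p 0.00276), with the second vehicle array lower than the others of its group. RRN3 itself, the factor that brings the enzyme to the promoter, read 10.46, 10.17 and 10.46 in vehicle and 10.14, 9.91 and 9.91 with vemurafenib (change -0.38, SE 0.10, limma adjusted p 0.00842). Its groups came close, the second vehicle array and the first drug array differing by little. RRN3 has near-identical pseudogene copies, and how the array separates them is not given in the sources used here.

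The polymerase subunits that did not pass were POLR1H and POLR1D. POLR1H, the small subunit involved in RNA cleavage and termination, read 9.59, 9.31 and 9.56 in vehicle and 9.29, 9.23 and 9.44 with vemurafenib, so the groups overlapped (change -0.16, 95% interval -0.37 to 0.04, limma adjusted p 0.172). Without vehicle replicate 2 it passed at a change of -0.25 (limma adjusted p 0.0324). POLR1C and POLR1D are shared by RNA polymerases I and III and bind each other. POLR1C fell, from 9.57, 9.34 and 9.58 in vehicle to 9.05, 9.02 and 8.97 with vemurafenib (change -0.49, SE 0.08). POLR1D read 10.84, 10.82 and 10.89 in vehicle and 11.14, 11.08 and 10.89 with vemurafenib, the third drug array level with the highest vehicle array (change 0.19, 95% interval 0.01 to 0.37, limma adjusted p 0.0749). Without vemurafenib replicate 3 it passed as a rise of 0.27 (limma adjusted p 0.016). The intervals of POLR1C and POLR1D lie on opposite sides of 0, though the difference between these genes was not tested.

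Set beside the other polymerases, 5 of 6 subunit genes particular to RNA polymerase I fell (median change -0.55), as did 9 of 10 of RNA polymerase III (median -0.46), 4 of 7 of RNA polymerase II (median -0.26) and 2 of 5 shared by all 3 enzymes (median -0.18). Over all genes 22.2% fell and the median was -0.05, and with so few subunits the share of those common to all enzymes is not set apart from it. In RNA polymerase II the largest changes were those of POLR2D (-0.67), POLR2I (-0.43) and the shared subunit POLR2H (-0.41). In RNA polymerase III, POLR3K (-0.91) and POLR3G (-0.89) fell most, and POLR3GL, the alternative form of POLR3G, was the riser, from 6.69 ± 0.20 to 8.05 ± 0.07 (SD, n = 3; change 1.36, SE 0.10). The vehicle level of POLR3GL lay below 6.87, among the dimmest 25% of genes. Counting also the transcription factors of that enzyme and its repressor MAF1, 14 of 20 fell and 1 rose. Whether the polymerases differ from each other was not tested.

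**Figure D2:**
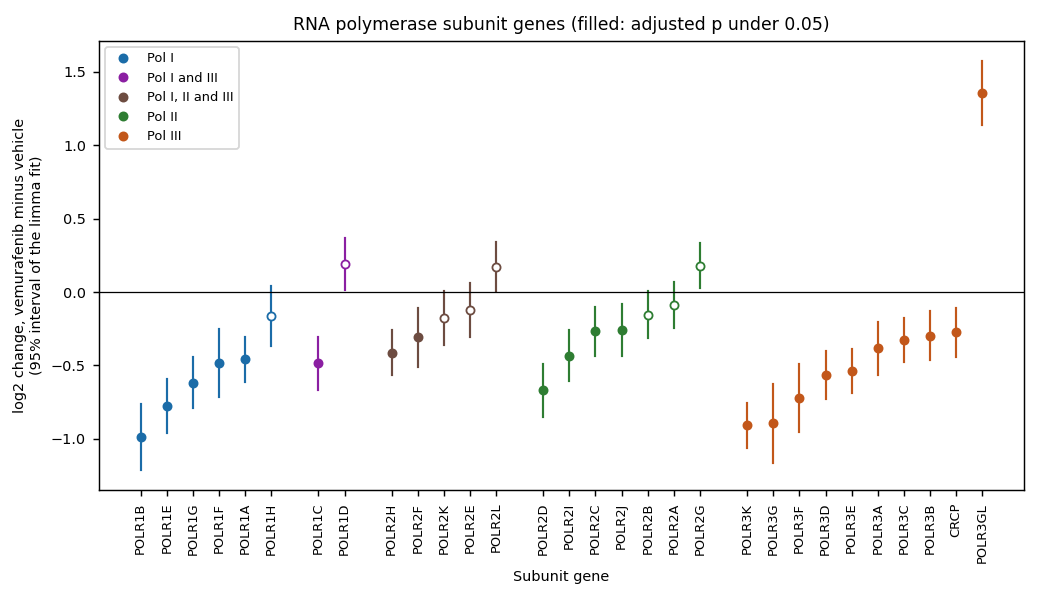
Points are log2 changes of RNA polymerase subunit genes (vertical axis, vemurafenib minus vehicle) with 95% intervals of the limma fit on 3 arrays a group, sorted within the enzymes that use each subunit, and filled where the adjusted p was under 0.05. POLR1B is the lowest of the polymerase I genes at -0.99, POLR1D lies at 0.19 with an open point, and POLR3GL stands alone at 1.36.

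Around the polymerase, 7 of 13 other genes of RNA polymerase I initiation and nucleolar regulation fell and 0 rose (22.2% of all genes lower). TCOF1, the treacle protein that links ribosomal DNA transcription to rRNA processing, went from 10.64, 10.62 and 10.70 in vehicle to 9.52, 9.25 and 9.42 with vemurafenib (change -1.26, SE 0.08). MYBBP1A changed by -1.08 and TAF1A, a subunit of the promoter selectivity factor, by -0.80. UBTF, which binds along the ribosomal DNA and was named here after its values were seen, stood at 10.54 ± 0.01 and 10.61 ± 0.02 (SD, n = 3; 95% interval of the change -0.08 to 0.21).

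Small nucleolar particles showed uneven changes among partners of the same particle. In the box H/ACA particle, which turns uridines into pseudouridines, the catalytic subunit DKC1 read 11.39, 11.30 and 11.31 in vehicle and 10.00, 9.90 and 10.00 with vemurafenib. This was a 2.59-fold fall (change -1.37, SE 0.07, limma adjusted p 5.54e-08), with both groups tight and far apart. NOP10, a small partner of DKC1, read 11.83, 11.92 and 11.83 in vehicle and 11.59, 11.51 and 11.47 with vemurafenib (change -0.34, SE 0.07). NHP2, the RNA-binding partner, read 11.00, 10.82 and 10.90 in vehicle and 10.61, 10.51 and 10.87 with vemurafenib, so that the third drug array lay among the vehicle arrays (change -0.24, limma adjusted p 0.0602). Without vemurafenib replicate 3, NHP2 passed at -0.35 (limma adjusted p 0.00752), and over all 16 alternatives its adjusted p ran from 0.0032 to 1. The second probe set of NHP2 changed by -0.21. It read 10.18, 10.17 and 10.02 in vehicle and 9.92, 9.95 and 9.87 with vemurafenib, so its groups did not overlap. With the mean of its probe sets, NHP2 passed at -0.23 (limma adjusted p 0.0272). GAR1, a further protein of this particle outside the named set, fell from 9.14 ± 0.08 to 8.63 ± 0.14 (SD, n = 3; change -0.52, SE 0.09). The 95% interval of DKC1, from -1.53 to -1.22, did not meet that of NOP10, from -0.50 to -0.18, though the difference between genes was not tested.

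The box C/D particle adds methyl groups to ribose. NOP58, one of its core scaffold proteins, read 11.68, 11.61 and 11.69 in vehicle and 10.76, 10.75 and 10.43 with vemurafenib (change -1.02, SE 0.09, limma adjusted p 4.47e-06), or 2.03-fold lower. The third drug array was the lowest. FBL, the methyltransferase fibrillarin, read 12.39, 12.47 and 12.49 in vehicle and 12.19, 12.12 and 12.25 with vemurafenib (change -0.26, SE 0.07, limma adjusted p 0.0108). Its groups did not overlap, but the fall was 1.2-fold only. The other scaffold protein, NOP56, had only a probe set that also names SNORD56, a small nucleolar RNA encoded in an intron of NOP56, and was left out of the 63. Of 13 further genes of box C/D or box H/ACA particles or their assembly, 11 fell and 0 rose, against 22.2% of all genes lower. They include GAR1, given above, and factors that serve 1 kind of particle only. The ATPase RUVBL1 (-0.89), SHQ1 (-0.66), the chaperone of DKC1, and WRAP53 (-0.65), which directs particles to Cajal bodies, fell most.

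Among 23 genes of the small-subunit processome and its maturation, 22 fell, 0 rose and NOP9 did not pass, against 22.2% of all genes lower. The median change was -0.67 and 15 of them fell by at least 1.5-fold. BYSL, the bystin protein of late small-subunit maturation, read 10.33, 10.11 and 10.20 in vehicle and 9.13, 8.98 and 9.01 with vemurafenib (change -1.17, SE 0.08, 2.26-fold lower). RRP9, a protein of the U3 particle that guides the first cuts, read 9.62, 9.52 and 9.64 in vehicle and 8.48, 8.50 and 8.63 with vemurafenib (change -1.05, SE 0.07, limma adjusted p 5.69e-07). IMP4, which joins U3 to the precursor, read 11.22, 11.11 and 11.13 in vehicle and 10.31, 10.25 and 10.23 with vemurafenib (change -0.90, SE 0.07). In all 3 genes the vehicle and drug arrays were clearly separate, against 28.5% of all genes lower without overlap. IMP3, the partner of IMP4, fell by 0.37 (SE 0.07) from 9.11 ± 0.04 to 8.73 ± 0.04 (SD, n = 3).

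The UTP proteins, the building blocks of the processome, are listed here by complex, and all with a probe set of their own fell. The probe set that UTP14C shares with ALG11 was higher by 0.19, without a test. UTP15 (-0.83), UTP4 (-0.74) and NOL11 (-0.65) belong to the part that binds the precursor first. UTP18 (-0.64) and UTP6 (-0.69) are in another complex of it, and NOL6 (-0.68) and RRP7A (-0.84) in the third. UTP20, a very large scaffold, changed by -0.77, UTP11 by -0.67, UTP14A, an activator of a helicase, by -0.64, UTP3 and UTP23 by -0.49 each and UTP25 by -0.32. NOP14 (-0.69) and RRP12 (-0.88) also fell, as did NOL10 (-0.48). The level of UTP4 was 12.99 ± 0.02 in vehicle and 12.25 ± 0.17 with vemurafenib (SD, n = 3). RRP7A has a near-identical pseudogene, RRP7BP, whose probe set fell as well (-0.63), and whether the probes separate the copies was not tested.

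The smallest falls of this group were those of NOL7 (-0.27) and RRP36 (-0.18, limma adjusted p 0.0415). The call of RRP36 ended when any array but vemurafenib replicate 3 was left out, with a limma adjusted p of 0.118 without vehicle replicate 1, 0.0547 without vehicle replicate 2, 0.0952 without vehicle replicate 3, 0.118 without vemurafenib replicate 1 and 0.102 without vemurafenib replicate 2. NOP9, an RNA-binding protein, stood at 7.94, 7.77 and 7.80 in vehicle and 8.02, 7.98 and 8.03 with vemurafenib, each drug array above each vehicle array (change 0.17, 95% interval 0.01 to 0.33, limma adjusted p 0.0816). Of 39 further small-subunit factors outside the named set, 32 fell and 1 rose (median change -0.63), against 22.2% and 23.2% of all genes. LTV1 (-1.16), WDR3 (-1.10) and PWP2 (-0.91) fell most, and the kinase gene RIOK3 was the riser (0.29).

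Of 16 large-subunit assembly genes, 15 fell and 1 rose, against 22.2% and 23.2% of all genes. The median change of the 16 was -0.74. NOP16, a nucleolar protein of early large-subunit particles, read 10.09, 9.79 and 9.91 in vehicle and 8.60, 8.57 and 8.64 with vemurafenib (change -1.33, SE 0.09, 2.51-fold lower). RRS1, which helps to bring in the particle of the small ribosomal RNA that RNA polymerase III makes, read 10.88, 10.74 and 10.94 in vehicle and 9.71, 9.78 and 9.73 with vemurafenib (change -1.12, SE 0.08). RRP1B, a nucleolar protein related to RRP1, read 10.60, 10.46 and 10.66 in vehicle and 9.60, 9.67 and 9.38 with vemurafenib (change -1.02, SE 0.09). None of these genes had overlapping groups, and 28.5% of all genes were lower without overlap. RRP1 itself changed by -0.59 (SE 0.08), and the 95% intervals of RRP1B (-1.22 to -0.82) and RRP1 (-0.75 to -0.42) did not meet. The difference between RRP1B and RRP1 was not tested.

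PES1, BOP1 and WDR12 form 1 complex that is needed to process the large-subunit RNA, and all 3 fell. BOP1 read 10.62, 10.64 and 10.63 in vehicle and 9.54, 9.45 and 9.39 with vemurafenib (change -1.17, SE 0.07, limma adjusted p 1.67e-07), and its second probe set changed by -1.0. WDR12 read 10.51, 10.29 and 10.57 in vehicle and 9.55, 9.56 and 9.49 with vemurafenib (change -0.92, SE 0.08). PES1 read 10.01, 9.83 and 9.86 in vehicle and 9.14, 9.11 and 9.28 with vemurafenib (change -0.72, SE 0.08). In each gene the drug arrays lay below every vehicle array, which held for 28.5% of all genes. The GTPases GNL2 (-0.86) and GNL3L (-0.58), the rRNA methyltransferases NOP2 (-0.76) and RRP8 (-0.43), the kinase NOL9 (-0.53) and the factors RRP15 (-0.83) and NOL12 (-0.46) fell too. NOL8 had the smallest fall (-0.23, limma adjusted p 0.0225), a call that ended when an array was left out, namely vehicle replicate 1 (limma adjusted p then 0.0817), vehicle replicate 3 (0.0752) or vemurafenib replicate 1 (0.0985).

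NOP53, which recruits the RNA exosome to large-subunit precursors and is also known as a tumour suppressor protein, was the 1 gene of the 57 that rose. It read 10.84, 10.74 and 10.71 in vehicle and 11.25, 11.18 and 11.12 with vemurafenib, so all drug arrays were higher (change 0.42, SE 0.07, limma adjusted p 0.00067). Its call was lost in 1 of 16 alternatives, the test against a 1.2-fold change (limma adjusted p 0.127). Of 40 further large-subunit factors outside the named set, 37 fell and 0 rose (median change -0.54), against 22.2% and 23.2% of all genes. MRTO4 fell most (-1.46), from 10.57, 10.51 and 10.52 in vehicle to 9.11, 9.10 and 9.01 with vemurafenib. NOC3L (-1.23) and the RNA helicase DDX21 (-1.15) came next. Of 26 genes of the RNA exosome, RNase P and other trimming nucleases 19 fell and 0 rose (median -0.41), against 22.2% of all genes lower. EXOSC9 (-1.12), EXOSC2 (-1.04) and POP7 (-1.02) were lowest.

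**Figure D3:**
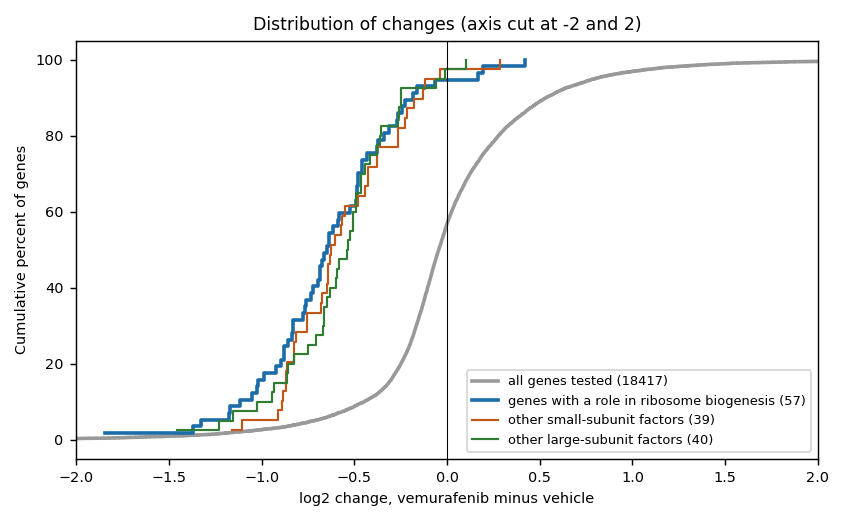
Curves give the cumulative percent of genes (vertical axis) up to each log2 change (vemurafenib minus vehicle, horizontal axis) for all 18417 genes tested, the 57 genes with a role in ribosome biogenesis and the 39 and 40 further assembly factors. The curves of the ribosome biogenesis genes lie to the left of that of all genes, with medians of -0.65, -0.63 and -0.54 against -0.05.

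Among abundant nucleolar proteins with several tasks, NOLC1, a chaperone of small nucleolar particles, went from 12.16, 11.93 and 12.13 in vehicle to 11.14, 11.21 and 11.23 with vemurafenib (change -0.88, SE 0.08). NCL, nucleolin, went from 12.29, 12.27 and 12.26 to 11.60, 11.59 and 11.66 (change -0.66, SE 0.07), with very little spread in either group. NPM1, nucleophosmin, which ferries ribosomal proteins and histones, read 13.40, 13.39 and 13.41 in vehicle and 13.33, 13.37 and 13.29 with vemurafenib (change -0.07, 95% interval -0.21 to 0.08, limma adjusted p 0.444). The drug arrays of NPM1 lay below the vehicle arrays by little, and its other probe sets outside the dimmest 25% changed by -0.10 and -0.13. NPM1 has many pseudogene copies, and how the probes separate them was not tested.

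**Figure D4:**
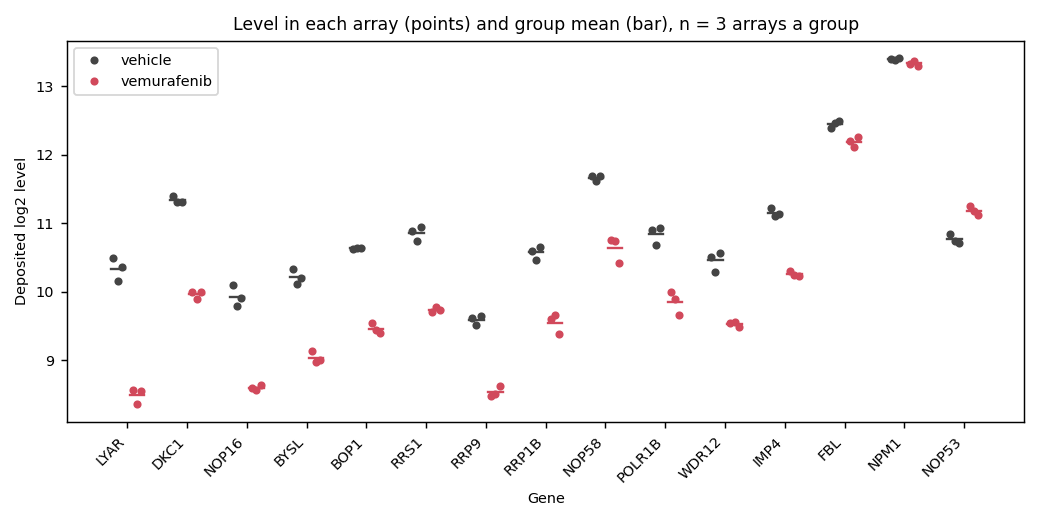
Points are the deposited log2 level (vertical axis) of each of 3 vehicle and 3 vemurafenib arrays, and bars the group means, for the 12 genes with the largest changes and for FBL, NPM1 and NOP53. The groups are apart for all 12, for instance 10.16 to 10.49 against 8.36 to 8.57 for LYAR, while those of NPM1 nearly meet and NOP53 is higher with vemurafenib.

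The 6 genes matched by name only behaved differently from one another. NOL3 encodes an inhibitor of cell death, and it read 9.00, 9.19 and 8.96 in vehicle and 9.59, 9.50 and 9.58 with vemurafenib (change 0.51, SE 0.08). NOL4L read 8.67, 8.59 and 8.70 in vehicle and 9.27, 9.07 and 9.27 with vemurafenib (change 0.55, SE 0.08). POLR1HASP, a transcript named after its neighbour POLR1H, read 6.31, 6.35 and 6.41 in vehicle and 6.94, 7.00 and 6.69 with vemurafenib (change 0.52, SE 0.09) from a level in the range of the dimmest genes. These 3 rose, each without overlap of the groups, against 23.2% of all genes higher. NOL4 and the divergent transcript NOL4L-DT were dim in both groups (means of 6.18 and 6.52 in vehicle) and did not pass, and RRP7BP fell, as given above.

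The expression of MYC and its network was read in the same arrays. MYC stood at 9.10, 8.84 and 8.84 in vehicle and 7.61, 7.50 and 7.62 with vemurafenib, a change of -1.35 (SE 0.09, limma adjusted p 2.83e-07). Of 11 genes of this network 3 fell (27.3%) and 2 rose (18.2%), close to the 22.2% and 23.2% of all genes. MXD4, which competes with MYC for MAX, rose from 8.49 ± 0.03 to 9.46 ± 0.16 (SD, n = 3; change 0.97), and MYCN changed by -0.33. In the surveillance of ribosome assembly, free RPL5 and RPL11 are known to hold back MDM2 and so raise p53. Of 5 measured genes of that list 2 rose and 0 fell, against 23.2% and 22.2% of all genes, too few genes to set the list apart. The risers were CDKN1A, a p53 target that stops the cell cycle (0.50), and HEXIM1 (0.39), an inhibitor of transcription elongation, whereas RPL5 (0.10), RPL11 (0.15) and MDM2 (0.05) did not pass.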

How the data were processed

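Total RNA of 6 A375 dishes, 3 a group, was labelled with biotin and read on single-colour Affymetrix arrays, per the labels' protocols. The deposited table holds log2 values for 33297 probe sets, and the submitters' processing notes name RMA and Partek without versions. The table was used as deposited, and the genome build was not given in the sources used here. GEO's platform annotation of 2016 gave 1 gene symbol for 19460 probe sets, several for 1754 and none for 12083. For a gene with several probe sets, the brightest on average stood for it, which gave 18417 genes.

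Groups were compared with limma 3.58.1 (R 4.3.3; lmFit and eBayes, group as the 1 factor), with Benjamini-Hochberg adjustment over all genes and a threshold of 0.05. The script was tested on simulated data. Array intensity carries no read depth, and the 3 arrays a group limit the precision (median SE of the 63 genes 0.08). The members and lists were chosen with earlier results of these data known. Per-array values were given for the 12 largest changes, all genes that rose, the polymerase I subunits, RRN3, the small nucleolar particle proteins, and PES1, BOP1 and WDR12, and up to 3 genes of each further list plus MYC; other genes named with array values were added after their values were seen. The alternatives were a replicate block, centring, quantile normalization, filters on dim genes, the mean of probe sets, an intensity trend, array weights, a minimum fold, a stricter threshold and leaving out each array.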

Additional observations from a re-analysis of the deposited data

How the results depend on the processing

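No gene of the 63 changed direction past the threshold under the 16 alternatives. The count of genes that fell, 52, ran from 49 to 54 in all but the test against 1.2-fold, where it was 42, and the count that rose ran from 3 to 5. Of the falls 42 passed in every alternative, as did the rises of NOL3 and NOL4L; POLR1HASP passed in the 14 that tested it, and NOP53 in all but the test against 1.2-fold. That test took the calls over all genes to 1655 lower and 2033 higher. The median change of the 63 genes, -0.63, was -0.69 with centred arrays, -0.60 after quantile normalization, -0.67 with array weights and between -0.66 and -0.60 with 1 array left out; centring moved the median of all genes by -0.06, from -0.05 to -0.11. NHP2 passed in 7 alternatives, POLR1D in 5 and POLR1H in 2. Filters on dim genes left 60 and 59 of the 63 genes. The design text says that dishes were paired, but only 1 array's label carries a letter, and same-numbered arrays did not deviate together (correlations of 0.14, -0.18 and -0.25), nor did every array correlate best with its own number. With the replicate block 50 genes fell and 4 rose, and over all genes 3617 fell and 3989 rose; RRP36 (limma adjusted p 0.085) and NOL8 (0.0536) no longer passed. Array signals near background limit NOL4, NOL4L-DT and POLR1HASP.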

Other observations

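A further 8 probe sets named a gene of the set together with other genes and were not used for the counts; their values are means of 3 arrays with SD, without a test. The probe set shared by NOP56, a box C/D scaffold, and SNORD56 read 9.19 ± 0.05 in vehicle and 8.29 ± 0.08 with vemurafenib, and all drug arrays were lower. The probe set shared by DKC1 and SNORA56, a small nucleolar RNA hosted by DKC1, read 8.69 ± 0.29 and 6.89 ± 0.12, a difference of -1.79 beside the -1.37 of DKC1 alone. A dim one shared by DKC1, SNORA36A and MIR664B read 5.54 ± 0.10 and 5.87 ± 0.52, and the third drug array (6.47) stood above the rest. The 3 probe sets shared by RRN3 and its pseudogenes differed by -0.42, -0.42 and -0.32. The one shared by NOP53 and LOC440311 was higher with vemurafenib by 0.48, and the one shared by UTP14C and ALG11 by 0.19.

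The probe sets of genes with several of their own went the same way. NPM1 had 4, at -0.07, -0.10, -0.13 and -0.17, the last of them dim. RRP7BP had a second at -0.34 beside its -0.63, and POLR1H one at -0.14 beside its -0.16.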
